A study of Mus musculus with 30 samples.

Results

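The 37 genes of the mouse mitochondrial genome were followed in dendritic cells grown from bone marrow. They were every row of the gene count table whose identifier maps to a symbol that begins with mt-, 37 of 54532 genes. This rule uses no measured value, but it was chosen with earlier results of these data known. The 37 genes comprised 13 mRNAs, 2 rRNAs and 22 tRNAs, which are described apart. Marrow of wild-type (WT) and Nlrx1-deficient mice (KO) was cultured with GM-CSF, a cytokine used to obtain such cells in culture. Nlrx1 encodes a mitochondrial protein of the NOD-like receptor family. Cells were collected unchallenged (0 h) and 3, 6, 9 and 12 h after viable conidia of the mould Aspergillus fumigatus, strain AF29, were added. This gave WT and KO groups at 0, 3, 6, 9 and 12 h, with 3 libraries in each of the 10 groups. The allele, age and sex of the animals were not given in the sources used here. The labels do not tie libraries to animals or cultures. All p-values therefore describe the spread between these libraries, and that spread may be technical.

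The mitochondrial genome is a small circle, and both of its strands are transcribed into long polycistronic RNAs. Transfer RNAs lie between most of the other genes, and their excision releases the mRNAs and rRNAs, most of which then receive a short poly(A) tail. The mRNAs encode core subunits of respiratory complexes I, III and IV and of ATP synthase (complex V), the rRNAs build the mitochondrial ribosome, and the tRNAs serve translation inside the organelle. Activated dendritic cells are known for a shift between respiration and glycolysis.

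The sequences below are those of GRCm38, the build named in the submitters' processing notes, read through the GENCODE M21 transcripts and printed 5′ to 3′. They show genes described in detail below: mt-Atp8, the tRNAs mt-Tg and mt-Tv with their neighbours, and mt-Te. The first is the whole of mt-Atp8, a small subunit of ATP synthase (chrM:7766-7969, forward strand), with the 43 bases it shares with the start of mt-Atp6 in capitals.
mt-Atp8: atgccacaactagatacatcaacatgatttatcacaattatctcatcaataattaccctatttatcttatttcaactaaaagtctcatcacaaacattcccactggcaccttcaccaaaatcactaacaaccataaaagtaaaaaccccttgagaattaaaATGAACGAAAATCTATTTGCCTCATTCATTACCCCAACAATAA
The next joins the last 20 bases of mt-Co3, the glycine tRNA mt-Tg in capitals, and the first 20 bases of mt-Nd3 (chrM:9371-9478, forward strand). No base separates the 3 genes.
mt-Co3/mt-Tg/mt-Nd3: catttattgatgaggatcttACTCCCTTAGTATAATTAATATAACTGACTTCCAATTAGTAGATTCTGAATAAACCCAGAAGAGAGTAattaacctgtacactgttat
The valine tRNA mt-Tv, in capitals, sits in the same way between mt-Rnr1 and mt-Rnr2 (chrM:1005-1113, forward strand).
mt-Rnr1/mt-Tv/mt-Rnr2: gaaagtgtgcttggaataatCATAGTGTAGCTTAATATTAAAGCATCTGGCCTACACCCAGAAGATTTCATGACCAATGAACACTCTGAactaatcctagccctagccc
The glutamate tRNA mt-Te (chrM:14071-14139, reverse strand) is shown with its anticodon in capitals.
mt-Te: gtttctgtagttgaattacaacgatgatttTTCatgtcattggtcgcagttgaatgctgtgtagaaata

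Libraries held 1722384 to 3509429 counts (median 2492886). Nlrx1 had 13 to 46 counts in the WT libraries and 0 to 14 in the KO libraries. Of 13 dendritic cell markers none was at 0 throughout, and their summed level was 2821 to 3870 CPM (counts scaled to a common library size) in WT and 3492 to 3900 CPM in KO libraries. Markers of neutrophils, 11 genes with none at 0 throughout, summed to 416 to 1036 CPM in WT and 215 to 594 CPM in KO libraries. Macrophage markers, 11 genes, summed to 10467 to 12659 CPM in WT and 9647 to 12055 CPM in KO libraries. Within each time the neutrophil sum was lower in KO than in WT libraries without overlap. At 0 h it was 243 to 291 CPM in KO and 416 to 449 CPM in WT. The macrophage sum was lower in KO without overlap at 0, 3, 6 and 9 h. The dendritic cell sum was higher in KO without overlap at 6, 9 and 12 h. The part of other cells in the results was not tested. In bulk libraries fewer cells of a type and less RNA per cell cannot be told apart.

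All 37 genes had counts. The 13 mRNAs, both rRNAs and 11 tRNAs passed the filter on low counts and were tested. The other 11 tRNAs (mt-Tf, mt-Ti, mt-Tn, mt-Tc, mt-Ty, mt-Td, mt-Tk, mt-Tr, mt-Ts2, mt-Tl2 and mt-Tt) held 0 to 8 counts per library, too few to show a change. In WT cells at 0 h, with level given as CPM per kilobase of gene ± SD over 3 libraries, mt-Co1, the catalytic core of complex IV, was the most abundant mRNA at 1734 ± 98.2. The ATP synthase mRNAs mt-Atp6 (1426 ± 96.0) and mt-Atp8 (1364 ± 85.5), mt-Cytb of complex III (1236 ± 85.4) and mt-Nd1 of complex I (1153 ± 68.7) followed, and neighbours among these 4 overlapped within 1 SD. A lower group held mt-Nd5 (683 ± 40.7), mt-Co2 (654 ± 46.7), mt-Nd6 (588 ± 37.1), mt-Co3 (557 ± 34.8), mt-Nd2 (495 ± 29.2) and mt-Nd4 (477 ± 38.6), where each again overlapped the next. The least abundant were mt-Nd4l (297 ± 21.5) and mt-Nd3 (169 ± 13.4). The rRNAs stood far above the mRNAs on this scale, at 32844 ± 1455 for mt-Rnr2 and 24375 ± 1098 for mt-Rnr1. The kit selects polyadenylated RNA, so counts on rRNA and tRNA genes are not a measure of all such RNA, and reads of an excised tRNA cannot be told apart from reads of longer RNAs that span it.

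This order rests on how reads that match nuclear copies were counted. Insertions of mitochondrial DNA into nuclear chromosomes leave near-identical pseudogenes, and 15 annotated ones matched a mitochondrial gene over at least 200 bases at 90% identity or more. A block on chromosome 1, from Gm28439 (start 24611535) to Gm29216 (end 24616197), holds copies that match mt-Atp6, mt-Co2, mt-Co3, mt-Nd4 and mt-Nd4l at 100% and mt-Nd3 at 99.7%. In each of the 30 libraries Gm10925 had 101% to 105% of the count of mt-Atp6, Gm28437 97.6% to 99.8% of that of mt-Co3 and Gm28661 94.5% to 97.5% of that of mt-Co2. Gm29216 held 15.5% to 18.0% of the count of mt-Co1 in WT libraries of 0 to 9 h, 20.6% to 21.3% in WT at 12 h and 20.1% to 21.5% in KO libraries. Gm28439 held 31.5% to 34.3% of the count of mt-Nd4 in WT libraries of 0 to 9 h, 35.7% to 36.8% in WT at 12 h and 34.4% to 37.3% in KO libraries. Gm10925 held 101.2% to 103.0% of the count of mt-Atp6 in WT libraries of 0 to 9 h, 104.2% to 104.4% in WT at 12 h and 103.9% to 105.2% in KO. Gm13340, another copy of mt-Co1, ran the other way, with medians of 15.4%, 13.6% and 13.5% and overlapping ranges. Some of these shares thus differed between the groups compared here. With the copies added to their genes, mt-Atp6 became the most abundant mRNA at 2892 CPM per kilobase, ahead of mt-Co1 at 2306. A read counted at both a gene and its copy would be counted again in such a sum. Whether reads were counted in that way was not tested. The copies together had 303693 counts against 981861 for the 13 mRNAs, 30.9%. No annotated copy matched mt-Atp8, mt-Nd1 or the rRNAs, and at under 200 bases the tRNAs could not pass this search. How reads matching a gene and its copy were counted is not given, so counts of the genes with copies are uncertain. Only annotated transcripts were searched. In the chromosome 1 block, Gm10925 (end 24614651) and Gm28661 (start 24614885) match mt-Atp6 and mt-Co2, the mRNA genes on either side of mt-Atp8. Gm28438 (end 24613119) and Gm28437 (start 24613189) match mt-Nd3 and mt-Co3, the neighbours of mt-Tg. Whether the stretches between these copies match mt-Atp8 or mt-Tg, and share their reads, was not tested.

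**Figure D1:**
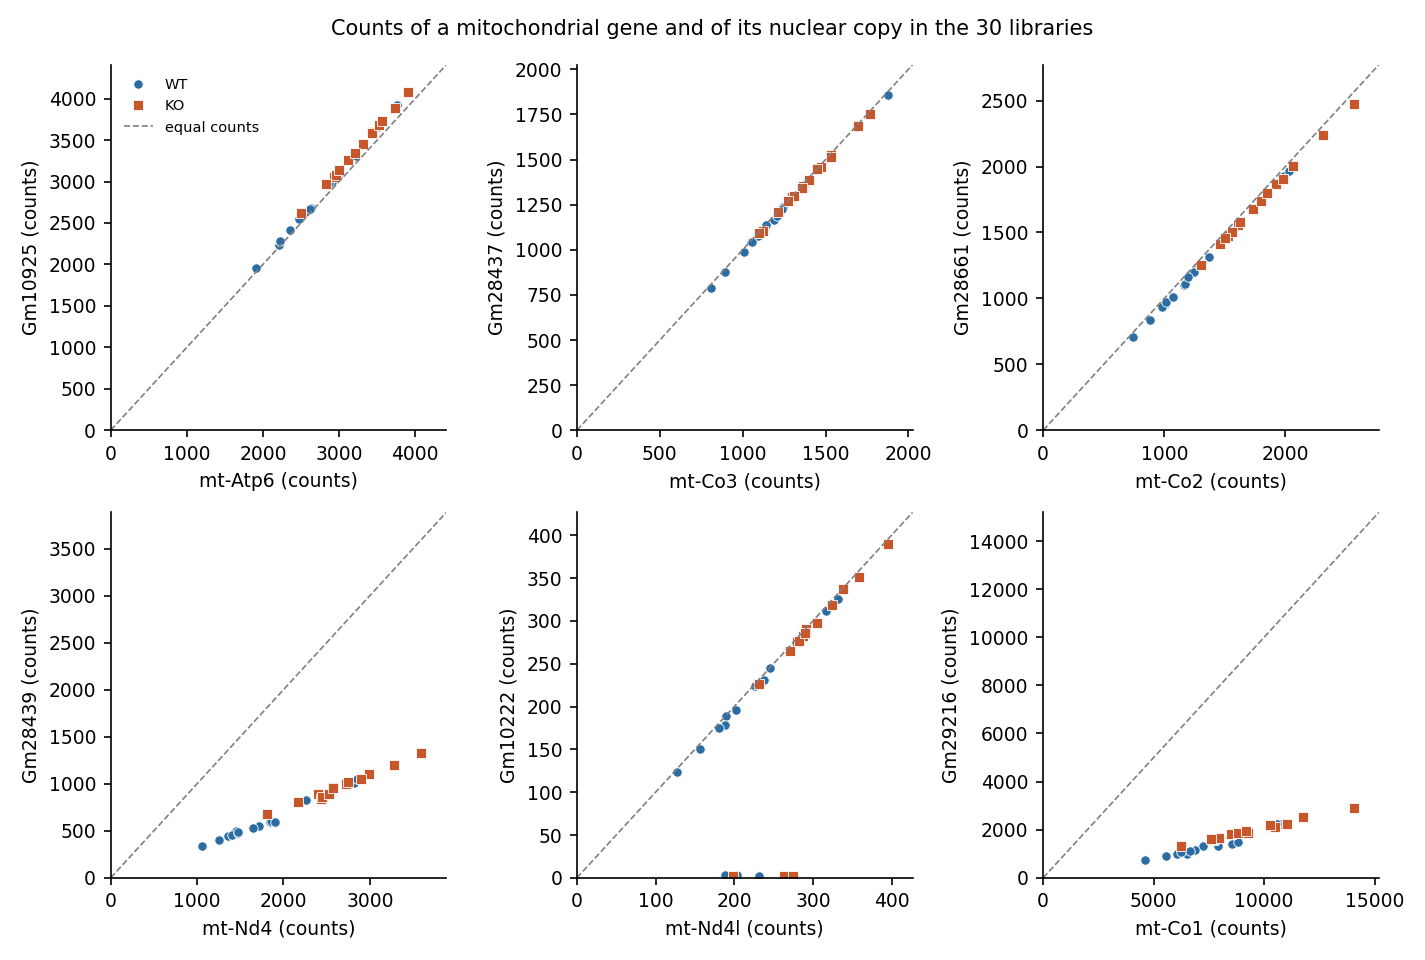
Counts of 6 mitochondrial mRNAs (x) and of a nuclear copy of each (y) in the 30 libraries, blue circles for WT and orange squares for KO, with a dashed line of equal counts. Gm10925, Gm28437 and Gm28661 follow the line in every library, Gm28439 and Gm29216 lie below it, at 31.5% to 37.3% and 15.5% to 21.5% of their gene, and Gm10222 has 2 or 3 counts in 6 libraries and nearly the count of mt-Nd4l in the other 24.

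The mitochondrial mRNAs were higher in KO than in WT cells, also before the fungus was added. The 13 mRNAs together took 0.925%, 0.962% and 1.05% of the counts in the WT libraries at 0 h and 1.38%, 1.48% and 1.66% in the KO libraries. Over all times the WT libraries lay between 0.856% and 1.31% (median 0.969%) and the KO libraries between 1.38% and 1.75% (median 1.54%), with no overlap. The KO share was 1.53 times the WT share (log2 ratio 0.62, two-sided p = 2e-05 from 100000 permutations of genotype within time). At single times the ratio was 1.54 at 0 h, 1.67 at 3 h, 1.59 at 6 h, 1.58 at 9 h and 1.31 at 12 h. At each the 3 KO libraries lay above the 3 WT libraries, which gives p = 0.1, the smallest an exact permutation test of 3 against 3 allows.

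**Figure D2:**
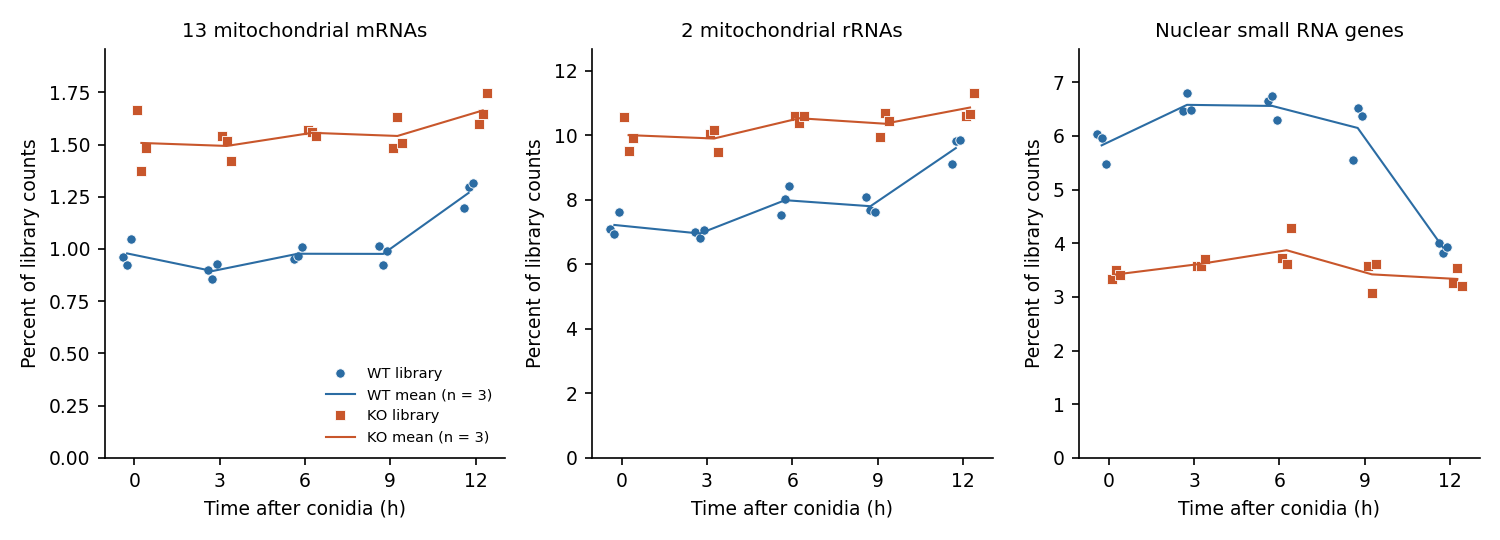
Percent of each library's counts on the 13 mitochondrial mRNAs, the 2 mitochondrial rRNAs and the nuclear small RNA genes against time after conidia, with circles for WT, squares for KO and lines through the means of 3 libraries. The mRNA share of every KO library (1.38% to 1.75%) exceeds that of every WT library (0.856% to 1.31%), and the small RNA share runs the other way. The WT libraries at 12 h lie within the KO range for small RNA, overlap it for rRNA and stay below it for mRNA.

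Gene by gene, with edgeR's quasi-likelihood test and p-values adjusted by Benjamini-Hochberg over all 12393 genes tested, 13 of 13 mRNAs were higher in KO cells at 0, 3, 6 and 9 h. Of all genes tested 2.26% were called higher at 0 h, 3.02% at 3 h, 2.42% at 6 h and 2.15% at 9 h. At 12 h 11 of 13 were higher, against 1.23% of all genes. The median log2 change of the mRNAs was 0.58 at 0 h, 0.68 at 3 h, 0.65 at 6 h, 0.83 at 9 h and 0.48 at 12 h, where the median of all genes stayed between -0.00 and 0.02. Over all times 13 of 13 were higher, against 12.6% of all genes, with a median of 0.63. At every time the KO libraries lay above the WT libraries for 13 of 13 mRNAs, which held for 0.815% of all genes. For 9 of 13 all 15 KO libraries lay above all 15 WT libraries, against 0.137% of all genes. Log2 changes below are over all times, ± standard error of the fit, unless a time is named.

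Complex I, the entry point for electrons from NADH, has 7 subunits encoded here. The membrane subunit mRNA mt-Nd4 had 536 CPM in the lowest WT library, a median of 621 and 925 in the highest, and 966, 1054 and 1261 CPM in the KO libraries. It was higher in KO cells by 0.74 ± 0.04 (adjusted p = 1.7e-14). mt-Nd6 is the sole mRNA on the reverse strand. It had 261, 312 and 447 CPM as lowest, median and highest WT values against 462, 518 and 618 in KO, and a log2 change of 0.71 ± 0.04, within the range of the forward-strand mRNAs (0.35 to 1.02). mt-Nd2 (0.71 ± 0.04), mt-Nd3 (0.63 ± 0.05), mt-Nd5 (0.58 ± 0.03), mt-Nd4l (0.56 ± 0.04) and mt-Nd1 (0.54 ± 0.03) covered the rest of the range. For mt-Nd4l the call was lost at each of the 5 times once its nuclear copy Gm10222 was added (0.48 ± 0.33 at 0 h, adjusted p = 0.497). This copy had 2 or 3 counts in 6 libraries and nearly the count of mt-Nd4l in the other 24. The sum is therefore uneven between libraries, and its lost calls do not describe mt-Nd4l alone. Over all times mt-Nd4l still passed with the copy added (0.55 ± 0.15, adjusted p = 0.0085). No source used here gives the strand setting of the counting, and reads of mt-Nd6 and of forward transcripts across it may be mixed.

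Complex III has 1 subunit encoded here, cytochrome b. mt-Cytb had 1195, 1335 and 1948 CPM as lowest, median and highest WT values and 2066, 2329 and 2743 CPM in KO. The lowest KO library exceeded the highest WT library, and the log2 change was 0.75 ± 0.03 (adjusted p = 6.9e-16).

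Complex IV, cytochrome c oxidase, has 3. mt-Co2, which carries the site that receives electrons from cytochrome c, was higher by 0.66 ± 0.03. mt-Co1 was higher by 0.45 ± 0.03 and mt-Co3 by 0.35 ± 0.03, the smallest change of the 13. mt-Co3 and mt-Nd3, the neighbours of mt-Tg, were those not called at 12 h (0.13 ± 0.06, adjusted p = 0.36, and 0.25 ± 0.10, adjusted p = 0.30). Over all times the changes of their nuclear copies were 0.35 ± 0.03 for Gm28437 and 0.63 ± 0.05 for Gm28438. In each library these copies held 97.6% to 99.8% and 89.3% to 98.0% of the count of their gene. Their changes are therefore no separate evidence.

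The ATP synthase mRNAs mt-Atp8 and mt-Atp6 overlap in the capital letters printed above and are carried on 1 RNA in mammals. In the WT libraries at 0 h mt-Atp8 had 279, 260.5 and 295 CPM, and in the KO libraries 622, 561 and 620. It had the largest log2 change of the 13 mRNAs at 0 h (1.11 ± 0.08), 3 h (1.21 ± 0.08), 6 h (1.06 ± 0.08) and 9 h (1.29 ± 0.08), and 0.42 ± 0.08 at 12 h. mt-Atp6 had 898, 989 and 1025 CPM in WT at 0 h and 1466, 1289 and 1323 in KO, and was higher over all times by 0.38 ± 0.02. The 2 genes thus moved by unequal amounts. Counts on mt-Atp8 were 0.223 to 0.442 times those on mt-Atp6 in WT libraries (median 0.270) and 0.424 to 0.490 times in KO libraries (median 0.447), and the WT libraries at 12 h, at 0.410, 0.417 and 0.442, held the top of the WT range. With its nuclear copy added, the change of mt-Atp6 was 0.39 ± 0.02.

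**Figure D3:**
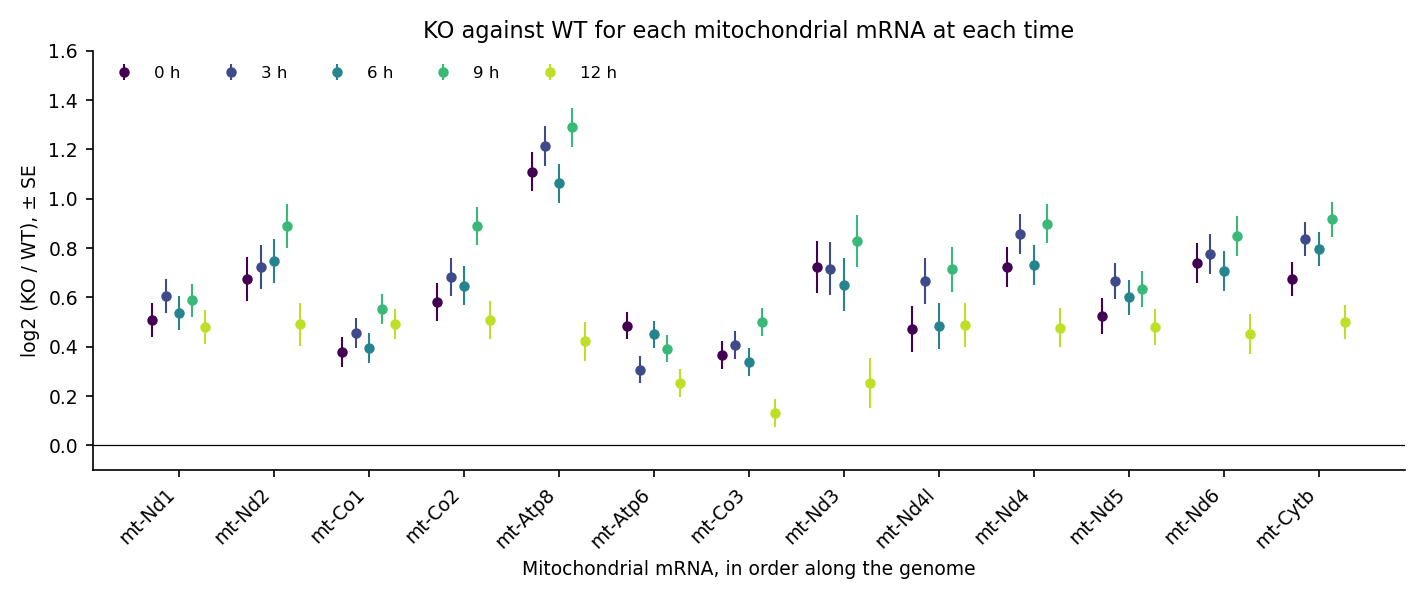
Log2 ratio of KO to WT for the 13 mitochondrial mRNAs in genome order, with points coloured by time and bars of 1 standard error of the fit. All points lie above 0, mt-Atp8 stands highest at 0, 3, 6 and 9 h, and most genes have their lowest point at 12 h.

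The share of 1 group of nuclear transcripts ran opposite to the mRNA share. Nuclear small RNA genes (snoRNA, snRNA, scaRNA, miRNA and misc_RNA in the annotation) took 5.48% to 6.80% of the counts in the 12 WT libraries from 0 to 9 h, 3.82%, 3.93% and 4.01% in the WT libraries at 12 h and 3.07% to 4.28% in the 15 KO libraries. With this share as a covariate in the fit, 0 of 13 mRNAs were called at 0, 3, 6 or 9 h or over all times, with median log2 changes of 0.06, -0.00, -0.00, 0.16 and 0.09. Standard errors widened in that fit, to a median of 0.16 for the mRNAs at 0 h, and calls over all genes fell too, from 622 to 6 at 0 h and from 3082 to 4 over all times. At 12 h, where the genotypes' small RNA shares were closest, 7 of 13 mRNAs were still called higher (median 0.34). Of all genes 0.863% were called in either direction in that fit. The mRNAs called at 12 h were mt-Co1 (0.40 ± 0.06), mt-Cytb (0.39 ± 0.07), mt-Nd1, mt-Co2, mt-Nd4, mt-Nd5 and mt-Nd6. There too the small RNA shares did not overlap, at 3.82% to 4.01% in WT and 3.20% to 3.53% in KO. Genotype and small RNA share therefore cannot be told apart at any of the 5 times in these libraries.

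Within each genotype few mRNAs were called before 12 h. At 3 and 6 h 0 of 13 were called in either genotype, where 1.02% and 5.96% of all genes were called in WT and 1.22% and 5.91% in KO. At an unadjusted p under 0.05 edgeR had 6 and 0 in WT and 0 and 0 in KO, and DESeq2 with adjustment called 0 in each. The median log2 changes were -0.12 and 0.04 in WT and -0.04 and 0.05 in KO. At 9 h in WT 3 of 13 were lower (mt-Co3, mt-Nd3 and mt-Nd4l, 4.81% of all genes lower), a call that DESeq2 did not make for any (0 of 13). At 9 h in KO mt-Co1 alone was higher (0.18 ± 0.06, adjusted p = 0.049, 5.86% of all genes higher), a call lost in 9 of the alternatives (highest adjusted p = 0.258).

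At 12 h in WT 11 of 13 mRNAs rose from 0 h, against 9.64% of all genes, with a median of 0.31. From 9 to 12 h 13 of 13 rose, against 5.16% of all genes, with a median of 0.51. mt-Atp8 went from 264, 228 and 216 CPM at 9 h to 428, 480 and 489 CPM at 12 h, without overlap, which is a rise of 0.98 ± 0.08. mt-Cytb went from 1335, 1195 and 1225 CPM to 1689, 1948 and 1936 CPM, a rise of 0.57 ± 0.07. The small RNA share fell between the same libraries, from 5.55%, 6.36% and 6.53% to 3.82%, 3.93% and 4.01%. With it as a covariate 0 of 13 mRNAs were called in either comparison. Of all genes 1.71% were then called from 0 to 12 h and 0.315% from 9 to 12 h. In KO cells 3 of 13 rose from 0 to 12 h, against 8.13% of all genes: mt-Co1 (0.36 ± 0.06), mt-Co2 (0.36 ± 0.08) and mt-Cytb (0.22 ± 0.07). These 3 were called in KO with the covariate too, where 14.4% of all genes were called in either direction. mt-Co1 went there from 3839, 3178 and 3421 CPM to 4468, 4485 and 4488 CPM. From 9 to 12 h in KO 0 of 13 were called, against 4.49% of all genes, with a median of 0.15, and 5 had an unadjusted p under 0.05 in edgeR and 0 were called by DESeq2.

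The difference between the genotypes in the change from 0 to 12 h was tested as an interaction, and 1 of 13 mRNAs passed, against 0.726% of all genes. mt-Atp8 rose by 0.74 ± 0.08 in WT. In KO the difference was 0.05 ± 0.08, from 561, 620 and 622 CPM at 0 h to 585.5, 608.5 and 677 CPM at 12 h. The difference of these changes was -0.69 ± 0.11 (adjusted p = 0.0019), was called in 30 of 30 fits that left out 1 library, and was -0.26 ± 0.15 (adjusted p = 0.855) with the small RNA share as a covariate. For the other 12 mRNAs the difference lay between -0.47 and 0.12 and did not pass. Tested over all later times together, mt-Atp8 was again the 1 mRNA to pass (adjusted p = 0.000235), against 0.888% of all genes.

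**Figure D4:**
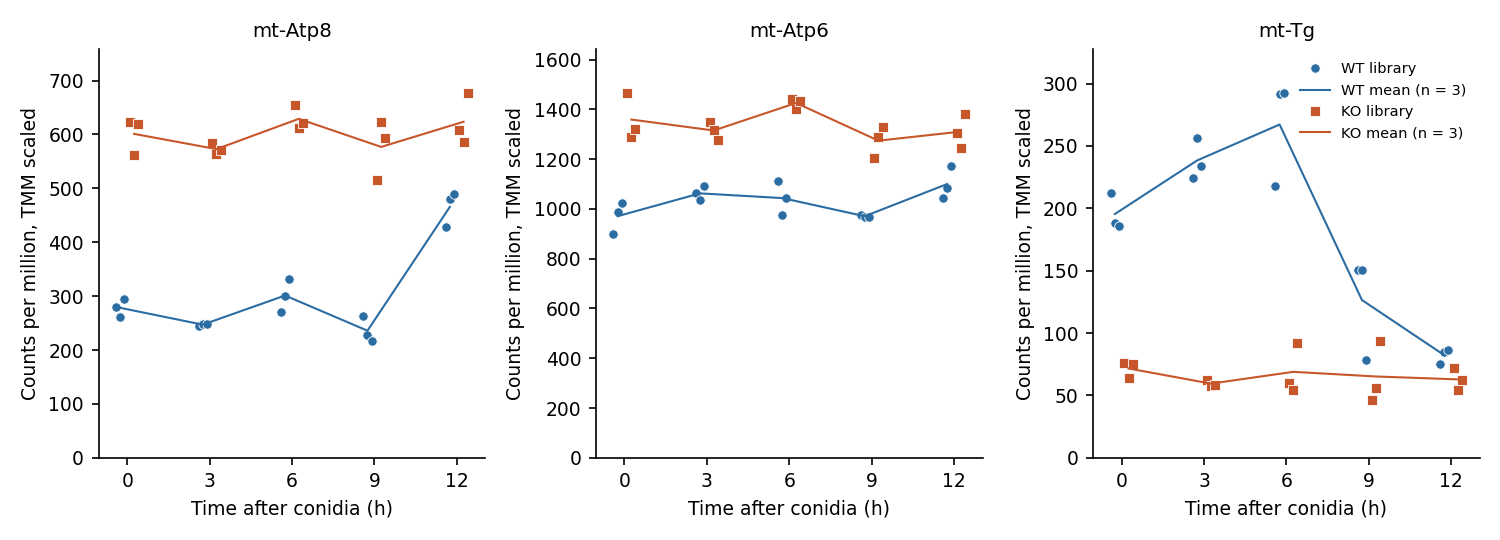
TMM-scaled CPM of mt-Atp8, mt-Atp6 and mt-Tg in the 30 libraries against time after conidia, with circles for WT, squares for KO and lines through the means of 3 libraries. mt-Atp8 in WT climbs from 216 to 264 CPM at 9 h to 428 to 489 CPM at 12 h, mt-Atp6 lies at 968 to 976 CPM at 9 h and 1042 to 1172 CPM at 12 h, and mt-Tg in WT lies at 75.6 to 86.8 CPM at 12 h, just above the KO libraries at 54.2 to 72.35 CPM.

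The 2 rRNAs shared the direction of the mRNAs. They took 6.80% to 9.87% of the counts in WT libraries (median 7.63%) and 9.49% to 11.3% in KO libraries (median 10.5%). The KO share was 1.31 times the WT share (log2 ratio 0.39, permutation p = 2e-05). Both rRNAs were called higher in KO cells at each of the 5 times. mt-Rnr1, the small subunit rRNA, had 22646, 22699.7 and 24489 CPM in WT at 0 h and 36608, 32156 and 34050 in KO, and was higher over all times by 0.51 ± 0.03. mt-Rnr2, the large subunit rRNA on the same precursor, was higher by 0.28 ± 0.02. Counts on mt-Rnr2 were accordingly 1.92 to 2.40 times those on mt-Rnr1 in WT and 1.77 to 1.94 times in KO libraries, which overlap at the WT libraries of 12 h. Counts on rRNAs per count on mRNAs were 7.27 to 8.36 in WT and 6.34 to 6.94 in KO, without overlap. From 0 to 12 h both rRNAs rose in WT (mt-Rnr1 0.48 ± 0.07, mt-Rnr2 0.27 ± 0.05) and were called higher in KO (0.20 ± 0.07 and 0.16 ± 0.05). In KO the call of mt-Rnr1 was lost with the replicate block (adjusted p = 0.0526) and in 20 alternatives in all (highest adjusted p = 0.221), and that of mt-Rnr2 in 5 (highest 0.223). With the small RNA share as a covariate neither was called between genotypes at any time or in WT at 12 h, while both stayed called in KO at 12 h (0.19 ± 0.05 and 0.15 ± 0.04).

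The 22 tRNAs together held 243 to 926 counts per library, 0.0146% to 0.0380% of the total in WT (median 0.0275%) and 0.0130% to 0.0195% in KO (median 0.0157%). The KO share was 0.630 times the WT share over all times (log2 ratio -0.67, permutation p = 3e-05), with ratios of 0.617 at 0 h, 0.452 at 3 h and 0.455 at 6 h and of 0.811 at 9 h and 0.963 at 12 h, where the libraries overlapped. The gene mt-Tg held 47.4% to 74.7% of the tRNA counts in WT and 34.3% to 47.8% in KO libraries. The lower share of the class in KO therefore rests largely on this 1 gene. The share of the other tRNAs together was not compared, and the ratios above do not describe them.

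mt-Tg carries glycine and lies without a spacer between mt-Co3 and mt-Nd3. It had 213, 188 and 186 CPM in WT at 0 h and 76.1, 63.7 and 75.1 in KO, without overlap, while both neighbours were higher in KO. The log2 change of mt-Tg was -1.45 ± 0.23 at 0 h, -2.0 ± 0.24 at 3 h, -1.94 ± 0.24 at 6 h and -0.96 ± 0.23 at 9 h, all called, and -0.39 ± 0.24 at 12 h (adjusted p = 0.59). The 9 h call was made in 26 of 30 edgeR fits that left out 1 library (highest adjusted p = 0.096). In CPM the lowest WT library at 9 h lay below the highest KO library. In WT cells mt-Tg fell from 0 to 12 h by 1.25 on the log2 scale, to 75.6, 84.5 and 86.8 CPM. In KO it had 72.35, 54.2 and 62.1 CPM at 12 h, all below the WT libraries. With the small RNA share as a covariate the change over all times was -1.13 ± 0.53 and not called (adjusted p = 0.983), against -1.35 ± 0.11 without it. The small RNA share was highest in the WT libraries of 0 to 9 h, at 5.48% or more, and its part in this result was not tested.

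Of the 11 tested tRNAs 6 were called over all times, against 24.9% of all genes, 2 higher and 4 lower in KO. The 4 lower ones, mt-Tg, mt-Tv (-0.96 ± 0.15), mt-Tw (-0.47 ± 0.13) and mt-Tm (-0.37 ± 0.12), lie on the forward strand. So do mt-Tl1, which was higher in KO, and mt-Th, which did not pass. mt-Tv, the valine tRNA between the rRNAs, had 17.0, 24.3 and 32.6 CPM in WT at 3 h and 6.11, 5.29 and 3.69 in KO, a log2 change of -2.27 ± 0.33, while mt-Rnr1 and mt-Rnr2 on either side were higher in KO by 0.57 ± 0.07 and 0.31 ± 0.05. These rest on few reads, 5 to 66 counts of mt-Tv per library. Higher in KO were mt-Te (0.83 ± 0.09), the glutamate tRNA next to mt-Nd6 on the reverse strand, and the leucine tRNA mt-Tl1 (0.50 ± 0.08), which adjoins mt-Nd1. mt-Te had 9.89, 7.97 and 12.0 CPM in WT at 0 h and 18.0, 17.6 and 17.2 in KO, and at every time its KO libraries lay above its WT libraries. At single times 2 of 11 were called at 0 h (5.02% of all genes), 4 at 3 h (6.92%), 3 at 6 h (5.78%), 4 at 9 h (5.06%) and 0 at 12 h (1.90%), where 9 of 11 had a positive log2 change and 1 had an unadjusted p under 0.05 in edgeR. The other 5 tested tRNAs, mt-Tq, mt-Ta, mt-Ts1, mt-Th and mt-Tp, had changes over all times between -0.35 and 0.36 that did not pass. mt-Tq passed at 9 h (1.00 ± 0.30, adjusted p = 0.049), a call lost in 26 of the alternatives other than the covariate.

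**Figure D5:**
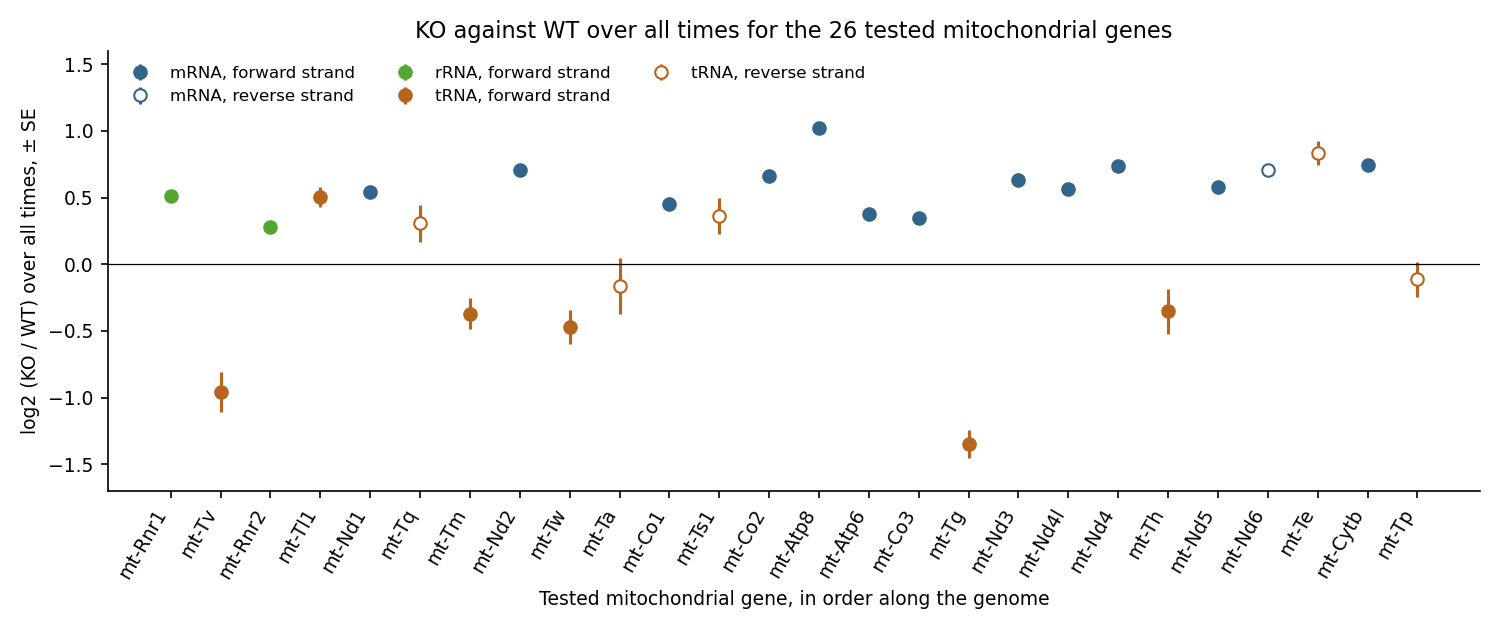
Log2 ratio of KO to WT over all times for the 26 tested mitochondrial genes in genome order, with bars of 1 standard error of the fit, colours for the class and open symbols for the reverse strand. The mRNAs and rRNAs lie between 0.28 and 1.02, and mt-Tv and mt-Tg fall to -0.96 and -1.35 between neighbours above 0.

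Within the mRNA counts the genotypes also differed in proportions, given here as a description. mt-Co1 held 24.9% to 28.1% of the mitochondrial mRNA counts in WT libraries (median 26.7%) and 23.1% to 26.9% in KO (median 23.9%). mt-Atp8 held 2.30% to 3.73% in WT (median 2.69%) and 3.52% to 4.21% in KO (median 3.86%), and was the one with the widest relative difference. mt-Co3 held 3.94% to 4.78% in WT and 3.33% to 4.08% in KO, lower in KO without overlap at each of the 5 times. mt-Atp8, mt-Cytb, mt-Nd4 and mt-Nd6 held larger shares in KO without overlap at 4 of the 5 times. These shares are counts of each gene and depend on how reads that match the copies were counted.

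The nuclear genes that transcribe, process and translate these RNAs had few calls in the same comparison. Over all times KO against WT called 1 higher and 0 lower of 18 genes of mitochondrial transcription and DNA maintenance (median log2 change 0.09, against 0.01 for all genes), 1 higher and 2 lower of 20 for RNA processing and modification (-0.10), and 2 higher and 1 lower of 18 for RNA stability and decay (0.02). These were Slc25a36, a pyrimidine nucleotide carrier (0.16 ± 0.05), Nsun3, which modifies the methionine tRNA (0.48 ± 0.12), Pus1 (-0.37 ± 0.09), Nsun2 (-0.18 ± 0.04), the polynucleotide phosphorylase Pnpt1 (0.44 ± 0.11), the oligoribonuclease Rexo2 (0.29 ± 0.04) and the helicase Dhx30 (-0.28 ± 0.06). Of 82 mitoribosomal protein genes 0 were higher and 7 lower (median -0.05), of 16 translation factor genes 1 was higher and 0 lower (0.01), and of 19 mitochondrial aminoacyl-tRNA synthetase genes 0 were called by edgeR (1 at an unadjusted p under 0.05, median -0.05). Of 40 nuclear partners in complexes I, III, IV and V 4 were higher and 9 lower (-0.05), with Cox6a1 of complex IV at -0.36 ± 0.04 and Atp5d of ATP synthase at -0.39 ± 0.10. Of 17 regulators of mitochondrial number 4 were higher and 2 lower (0.04), with the mitophagy gene Bnip3 at 0.33 ± 0.07. All these shares can be read against the 12.6% of all genes called higher and 12.2% called lower in this comparison.

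The authors' deposited tables, which list only genes past an adjusted p of 0.05 and an absolute log2 change of 0.5, held 9 mitochondrial mRNAs for WT against KO at 0 h, 10 at 3 h, 9 at 6 h, 11 at 9 h and 1 at 12 h. For mt-Atp8 the authors' deposited tables give 1.11 at 0 h and 1.29 at 9 h in the direction of KO over WT, and for mt-Tg -1.45 at 0 h. In WT from 0 to 12 h the authors' deposited table lists mt-Atp8 at 0.74 and mt-Tg at -1.25.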

How the data were processed

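Libraries were made from total RNA with a stranded poly(A) kit, per the labels' protocols. The deposited table gives raw counts for each Ensembl identifier, made by the authors. Tools named per the submitters' processing notes are HISAT2, Trimmomatic 0.35, DESeq2 and StringTie, with build GRCm38. No source used here gives the annotation release, the strand setting or the treatment of multi-mapping reads. The 13 deposited comparison tables give log2 changes and adjusted p-values by the authors, per the file headers, and 78 columns of normalized values per library in them were not used.

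Names and coordinates came from GENCODE M21 (54495 of 54532 identifiers matched). Genes were kept with filterByExpr (minimum count 10; 12393 kept, 98.7% of counts) and fitted in edgeR 4.0.16 (R 4.3.3; TMM, robust quasi-likelihood, 1 coefficient per group, 20 residual and 6.03 prior degrees of freedom), with p-values adjusted by Benjamini-Hochberg over all genes and a threshold of 0.05. The biological coefficient of variation was 13.7%. Shares of counts were compared by permutation. Nuclear copies were found with blastn (at least 90% identity over 200 bases). The scripts were tested on simulated data. The 30 libraries of 10 groups held 1722384 to 3509429 counts, which limits tRNAs most; p-values cover the spread between libraries. Alternatives were other scalings, no filter, DESeq2 1.42.0, 6 libraries alone, a replicate block, the small RNA share as covariate, copies added (chosen after seeing the data) and leaving out each library. All members may be named, and of each pathway list up to 3 genes with the largest change among those past the threshold; 1 such gene is not reported here. The members and lists were chosen with earlier results of these data known.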

Additional observations from a re-analysis of the deposited data

Results flagged for a closer look

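For 4 mitochondrial genes the change from 0 h differed between the genotypes when all later times were tested together, against 0.888% of all genes tested with edgeR's quasi-likelihood test. The mRNA mt-Atp8 had an adjusted p of 0.000235. In the change from 0 to 12 h alone its difference, KO minus WT, was -0.69 on the log2 scale. It was called in 30 of 30 fits that left out 1 library. The tRNAs mt-Tm (adjusted p = 0.0345), mt-Tv (0.0440) and mt-Tg (0.0440) passed by less. Leaving out 1 library, mt-Tm was called in 14 of 30 fits, mt-Tv in 8 and mt-Tg in 7. With the small RNA share as a covariate mt-Atp8 (adjusted p = 0.825) and mt-Tg (0.650) were not called.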

How the results depend on the processing

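Among the counts of mitochondrial mRNAs called, those between genotypes at 0, 3, 6 and 9 h and over all times stayed at 13 with the block or on leaving out 1 library. Under other scalings, no count filter or DESeq2 they stayed within the tolerance set for a move, so smaller changes are not listed. With copies added 12 were called at each of these times and 13 over all times. With the small RNA share as a covariate they were 0, 0, 0, 0 and 0, and 7 at 12 h, where 0.863% of all genes were called. In WT at 9 h the 3 calls became 0 with library totals, no filter, the covariate, 6 libraries alone or DESeq2 and 1 with copies added. In KO at 9 h the 1 call became 0 with library totals, no filter, copies added or 6 libraries alone and 2 with the covariate. The covariate gave 2 in WT at 6 h, 1 in KO at 6 h and 0 in WT at 12 h. From 9 to 12 h in WT the 13 calls became 8 with no filter and 0 with the covariate. The difference between genotypes in the change to 12 h called 5 with library totals and 0 with the covariate, and at any time 7, 0 and, with DESeq2, 3. Library totals moved the median of all genes by 0.13 at 3 h and 0.10 at 6 h between genotypes, and by -0.11 and -0.14 in the difference at 9 and 12 h. The causes were not tested.

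Leaving out 1 library gave 0 to 4 calls in WT at 9 h (0 without WT 0 h replicate 1 or 3 or WT 9 h replicate 2 or 3; 1 without WT 3 h replicate 1, WT 12 h replicate 3, KO 0 h replicate 3, KO 3 h replicate 1 or 3, KO 6 h replicate 3 or KO 12 h replicate 1). It gave 0 to 2 in KO at 9 h (0 without WT 3 h replicate 2, KO 0 h replicate 2 or 3 or KO 9 h replicate 2; 2 without KO 0 h replicate 1 or KO 9 h replicate 3), 2 to 5 in KO at 12 h (5 without KO 0 h replicate 1), 0 to 1 in KO from 9 to 12 h (1 without KO 9 h replicate 2) and 1 to 2 for the difference at any time (2 without WT 9 h replicate 1 or KO 0 h replicate 1). The log2 ratio of the tRNA share at 12 h, -0.055, became 0.054 without KO 12 h replicate 2.

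With the covariate these log2 changes reversed sign, none of them called. For WT 12 h against 0 h they were mt-Nd1 -0.17, mt-Nd2 -0.17, mt-Co1 -0.067, mt-Co2 -0.065, mt-Co3 -0.030, mt-Nd3 -0.00078, mt-Nd4 -0.024 and mt-Nd6 -0.042. For WT 12 h against 9 h they were mt-Rnr2 -0.052, mt-Nd1 -0.19, mt-Nd2 -0.061, mt-Co1 -0.13, mt-Co2 -0.026, mt-Atp6 -0.0094, mt-Nd4l -0.23, mt-Nd5 -0.19 and mt-Nd6 -0.081. For KO against WT at 0 h they were mt-Co1 -0.023, mt-Co2 -0.054, mt-Co3 -0.043, mt-Nd4l -0.22, mt-Nd5 -0.017 and mt-Te -0.21. For KO against WT at 3 h they were mt-Rnr2 -0.063, mt-Nd2 -0.033, mt-Co1 -0.038, mt-Co2 -0.1, mt-Co3 -0.10, mt-Nd4l -0.18, mt-Nd5 -0.0012, mt-Nd6 -0.039 and mt-Te -0.27. For KO against WT at 6 h they were mt-Rnr1 -0.021, mt-Rnr2 -0.11, mt-Nd1 -0.0020, mt-Co1 -0.053, mt-Co2 -0.060, mt-Co3 -0.12, mt-Nd4l -0.29, mt-Nd5 -0.0043 and mt-Nd6 -0.028. For KO against WT at 9 h they were mt-Rnr2 -0.013 and mt-Nd4l -0.068. For KO against WT over all times they were mt-Rnr2 -0.0041, mt-Co3 -0.040, mt-Nd4l -0.087 and mt-Te -0.14.

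The labels give each group replicates 1 to 3. With the replicate block the count of mRNAs in WT at 9 h was 2. In KO at 9 h it was 1, now mt-Nd3 (-0.26, adjusted p = 0.0351) in place of mt-Co1, and no other mRNA call changed. The calls of mt-Nd4l in WT at 9 h (adjusted p = 0.0531), mt-Co1 in KO at 9 h (0.0637), mt-Rnr1 in KO at 12 h (0.0526) and mt-Tq between genotypes at 9 h (0.0632) were lost. Libraries that shared a number had a mean correlation of deviations of 0.0094, against -0.0047 for others, and 12 of 30 correlated best with their own number, so the numbers were not taken to pair them. Depth limits the 11 tRNAs with 0 to 8 counts per library.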

Other observations

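Within a genotype the share of nuclear small RNA counts could be set against the mitochondrial mRNA share across libraries, as 2 relations. Over the 15 KO libraries Pearson's r was -0.41 (permutation p = 0.124) and Spearman's rho -0.44 (permutation p = 0.105), and r was -0.57 without the 2 libraries farthest from the median small RNA share. Over the 12 WT libraries of 0 to 9 h r was -0.68 (permutation p = 0.0171, adjusted 0.0343) and rho -0.62 (permutation p = 0.0358). Without the 2 farthest libraries r was -0.33, so that the WT relation rests on them. Both shares are parts of the same total count. The permutations moved libraries freely across times, so differences between times enter these p-values.

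The nuclear copy Gm10222 had 2 or 3 counts in 6 libraries, where mt-Nd4l had 188 to 275 counts. In the other 24 libraries mt-Nd4l had 127 to 395 counts, a range that includes the first.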
